A study of Homo sapiens with 6 samples.

Results

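The aminoacyl-tRNA synthetases are the enzymes that load each tRNA with its amino acid. The 36 genes described here were chosen by their symbols from the 23228 genes in the count tables: 20 encode cytosolic synthetases and 16 encode mitochondrial ones, whose symbols end in 2. GARS and KARS serve both compartments from a single gene and were kept with the cytosolic class. All 36 genes passed the filter on low counts and were tested, with 1029 to 10030 reads per library for a cytosolic gene and 135 to 8043 for a mitochondrial one.

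To examine how adipose conditions change gene expression in endometrioid endometrial cancer, RNA-seq was performed on RL95-2, a human endometrial carcinoma cell line. The cells were kept for 24 h in serum-free RPMI mixed 1:1 either with DMEM (control, 3 libraries) or with ADP-CM (3 libraries), so both groups lacked serum and differed in the conditioned part of the medium. ADP-CM is DMEM conditioned by primary mature adipocytes from human visceral adipose tissue, and how many donors contributed to the batch used here is not given in the sources used here. The labels number the libraries of each group but do not say whether they came from separate cultures on separate days. The p-values below therefore set the difference between the groups against the spread between these libraries. Whether the differences extend to other cultures or other batches of ADP-CM cannot be told from them.

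The depth on genes ran from 16262614 to 18363033 reads. Reads on no gene were 10.3% ± 0.0528 of a control library and 11.5% ± 0.0331 of an ADP-CM library (SD, n = 3 per group). All 7 epithelial markers were detected, with a summed level of 3992 to 4062 CPM in control and 3315 to 3359 CPM in ADP-CM. Of these 7, 5 were called lower in ADP-CM (KRT19, log2 fold change −0.85, CDH1, −0.42, KRT8, −0.36, CLDN4, −0.14, and KRT18, −0.13), MUC1 was called higher from a low level, and EPCAM was not called. PAX8, a transcription factor of the female genital tract, was at 150.1 and 182 CPM in control and ADP-CM (means, n = 3 each). It was called higher, with a log2 fold change of 0.28. Of the other endometrial markers, EMX2 was called higher from a low level (0.60) and ESR1 was not called. The progesterone receptor gene PGR was too low to be tested. Here CPM is a gene's reads scaled to the library's total on genes (reads per 1000000) after TMM normalization in edgeR. Of 7 adipocyte markers, ADIPOQ, LEP and CIDEA had 0 reads in every library and 5 had at most 3. The summed level of all 7, mainly LIPE, ranged from 5.49 to 6.73 CPM in control and from 3.98 to 4.62 CPM in ADP-CM. LIPE was called lower, with a log2 fold change of −0.62. The summed leukocyte markers (4 genes, almost wholly CD68) ranged from 6.90 to 8.11 and from 9.76 to 11.9 CPM, the endothelial ones (3 genes, almost wholly CDH5) from 60.7 to 66.4 and from 54.5 to 61.6 CPM, and the fibroblast ones (4 genes, mainly COL1A1) from 61.2 to 68.2 and from 78.2 to 79.1 CPM. The part that these shifts and the larger share of reads on no gene play in the results below was not tested.

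Each synthetase joins 1 amino acid to the matching tRNAs at the cost of ATP and so sets the supply of charged tRNA for the ribosome. In the cytosol of animal cells, a group of them is held together in the multisynthetase complex by the scaffold proteins AIMP1, AIMP2 and EEF1E1. Mitochondria translate their own small genome with a separate set of enzymes made from nuclear genes. When charged tRNA runs short, the kinase EIF2AK4 (GCN2) senses the uncharged tRNA and translation of the transcription factor ATF4 increases, and several cytosolic synthetase genes are known ATF4 targets.

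ATF4 binds, with C/EBP partners, to the element TGATGNAA. The promoters that hold this element are shown because ATF4 mRNA and several of these genes rose with ADP-CM. Each sequence is from RefSeq on GRCh38.p14 and reads 5′ to 3′ along the gene's strand. Capitals mark the element, which reads TTGCATCA or TTTCATCA where it lies on the opposite strand.
IARS: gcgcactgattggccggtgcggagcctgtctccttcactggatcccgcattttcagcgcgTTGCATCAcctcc
GARS: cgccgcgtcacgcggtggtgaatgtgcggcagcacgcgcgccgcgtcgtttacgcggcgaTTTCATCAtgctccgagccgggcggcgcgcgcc
CARS: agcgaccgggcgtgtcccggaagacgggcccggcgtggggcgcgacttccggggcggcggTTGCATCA
NARS: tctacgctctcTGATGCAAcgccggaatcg
MARS: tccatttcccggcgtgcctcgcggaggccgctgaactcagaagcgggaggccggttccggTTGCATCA
TARS: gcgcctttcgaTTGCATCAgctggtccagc
AARS: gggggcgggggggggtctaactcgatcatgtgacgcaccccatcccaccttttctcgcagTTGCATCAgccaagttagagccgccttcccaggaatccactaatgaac
YARS2: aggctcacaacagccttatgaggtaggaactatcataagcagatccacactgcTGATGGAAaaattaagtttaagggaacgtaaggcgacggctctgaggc

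The promoter table covers 250 bases before to 50 after each annotated start and held an entry for 16 of the 20 cytosolic genes (not DARS, LARS, VARS or YARS) and 14 of the 16 mitochondrial genes (not AARS2 or VARS2). The element was found in 7 of the 16 cytosolic genes and in 1 of the 14 mitochondrial genes, YARS2, with both strands searched. The table lists 2 starts for GARS, CARS and TARS, and in each of them the element was found at only 1 of the 2, from which its distance is given here. Among all 27305 genes in the table, 4.46% held it. Its first base lay 13 bases before the start in IARS at chr9:92293698-92293770, 33 before in GARS at chr7:30594785-30594877, 2 before in CARS at chr11:3057418-3057485 and 4 before in MARS at chr12:57488004-57488071. In TARS (chr5:33440956-33440985) and NARS (chr18:57621804-57621833) it began 3 and 15 bases into the transcript. In AARS (chr16:70289646-70289753) and YARS2 (chr12:32756047-32756147) it lay farther off, 187 and 197 bases before the start. Of these genes, IARS, GARS, CARS, NARS, MARS and YARS2 rose with ADP-CM, while AARS and TARS did not pass the test. QARS, SARS and EPRS also rose and had a promoter entry without the element, and LARS, VARS and VARS2 rose and had no entry. A match is a run of letters and not a measured site of binding, and whether ATF4 acted on these genes was not tested.

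ADP-CM raised 10 of the 20 cytosolic synthetase genes, led by those for isoleucine (IARS), leucine (LARS), glutamine (QARS) and glycine (GARS), and lowered 2, those for aspartate (DARS) and tryptophan (WARS). The changes were small. The genes that rose did so by 6.73% to 16.3%, WARS changed by −5.88% and DARS by −10.2%, and 0 of the 36 synthetase genes reached a fold change of 1.5 at any p-value, with edgeR or with DESeq2. The threshold for a call was 0.01 for the p-value of edgeR's quasi-likelihood test, adjusted by Benjamini-Hochberg over all 12663 genes tested. Of all tested genes, 13.5% were called higher and 13.0% lower, and 2.27% were called with a fold change over 1.5 in either direction. Among the 3905 genes whose mean CPM lay within the range of the cytosolic synthetases, 20.2% were called higher and 18.3% lower. The 10 of 20 cytosolic genes called higher lay above these shares and the 2 of 20 called lower lay below them, without a test of the list itself.

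The median log2 fold change of the 20 cytosolic genes was 0.09, with an SD of 0.00478 over the 3 ADP-CM libraries, against −0.0023 for all tested genes. A positive value means more reads in ADP-CM. In all, 16 of the 20 had a fold change above zero and 4 below it. Their summed level was 4452 ± 9.62 CPM in control and 4738 ± 20.5 CPM in ADP-CM (SD, n = 3 each), a difference of 6.42%. The groups did not overlap for 15 of the 20 genes, compared with 45.5% of all tested genes. In these bulk libraries, more or fewer cells of a kind and more or less RNA of a gene per cell cannot be told apart.

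**Figure D1:**
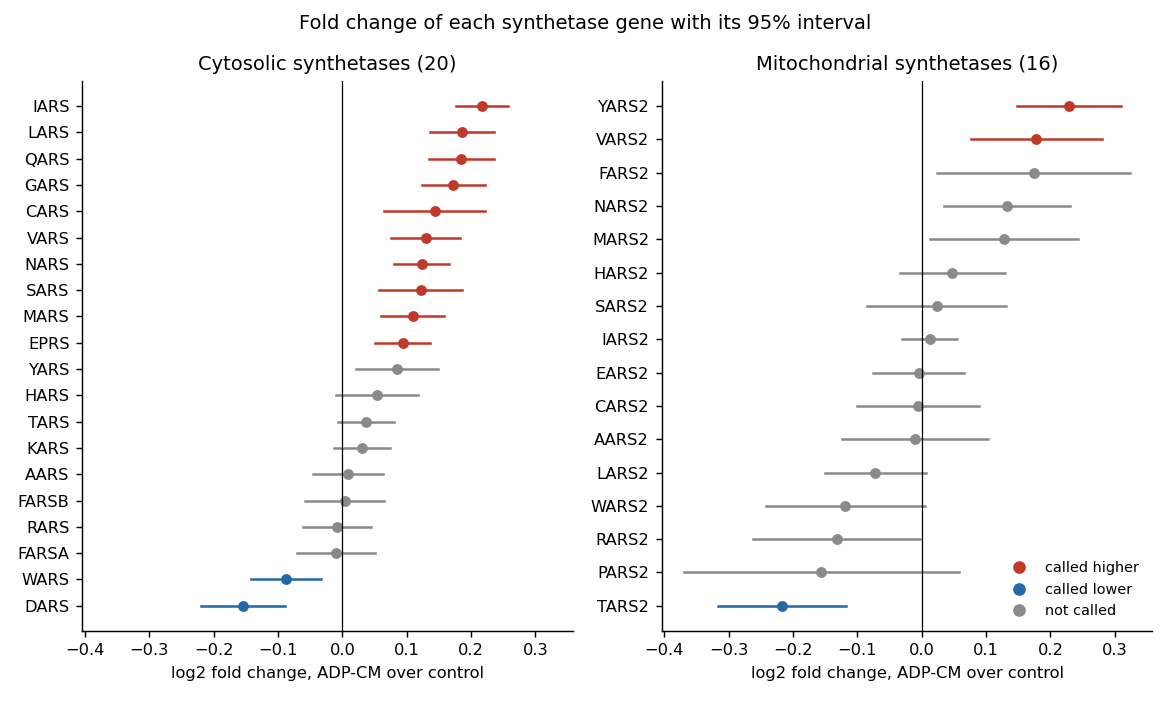
Log2 fold change (x axis, ADP-CM over control, n = 3 libraries each) of the 20 cytosolic (left) and 16 mitochondrial (right) synthetase genes, ordered by value, with 95% intervals from edgeR's quasi-likelihood fit as bars. Red points passed the threshold of 0.01 on the adjusted p-value upward and blue points downward. Of the cytosolic genes, 10 lie in red on the right, from 0.09 for EPRS to 0.22 for IARS, while the mitochondrial genes spread about evenly to both sides with wider bars.

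The aliphatic amino acids leucine, isoleucine and valine, together the branched-chain amino acids, are charged by 3 large and closely related enzymes, and all 3 of their cytosolic genes rose. IARS (chr9:94972489-95056136, hg19) was at 459, 472 and 471 CPM in control replicates 1, 2 and 3 and at 539, 545 and 545 CPM in the ADP-CM replicates. It had the smallest adjusted p-value of the family, 5.52e-14, with a log2 fold change of 0.22 (SE 0.0202). LARS (chr5:145490129-145562259), whose product also acts as a leucine sensor for the growth kinase mTORC1, was at 217 CPM in each of the 3 control libraries and at 242, 251 and 246 CPM in ADP-CM. Its SD was 0.284 CPM in control and 4.32 CPM in ADP-CM. The lowest ADP-CM value lay above all controls, and the log2 fold change was 0.19 (SE 0.0249, adjusted p = 8.16e-09, edgeR). VARS (chr6:31745295-31763529) was at 173, 172 and 171 CPM in control and at 188, 186 and 189.8 CPM in ADP-CM, a log2 fold change of 0.13 (SE 0.0269, adjusted p = 7.68e-05, edgeR). The 3 genes thus separated the groups without overlap, IARS by the widest margin.

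QARS and GARS changed to a similar degree as LARS. QARS (chr3:49133365-49142563), the glutamine enzyme of the complex, was at 206, 203 and 201 CPM in control and at 231, 228 and 234 CPM in ADP-CM (log2 fold change 0.18, SE 0.0254, adjusted p = 1.59e-08, edgeR). GARS (chr7:30620149-30673649), which charges glycine tRNAs in both compartments, was at 222, 221 and 223 CPM in control and at 248, 252 and 249 CPM in ADP-CM (log2 fold change 0.17, SE 0.0246, adjusted p = 4.11e-08, edgeR). For both genes the gap between the groups was several times the spread within either. NARS and CARS, for asparagine and cysteine, followed. NARS (chr18:55267888-55289445) was at 381, 381 and 379 CPM in control and at 409.9, 425 and 409 CPM in ADP-CM (log2 fold change 0.12, SE 0.0216, adjusted p = 3.86e-06, edgeR). CARS (chr11:3022152-3078843) was at 63.4, 64.5 and 61.3 CPM in control and at 71.2, 67.7 and 70.2 CPM in ADP-CM (log2 fold change 0.14, SE 0.0392, adjusted p = 0.00255, edgeR). CARS lost its call with DESeq2 and without ADP-CM replicate 1 or control replicate 3, where its adjusted p-value reached 0.0282.

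The remaining called cytosolic genes that rose were those for serine (SARS, log2 fold change 0.12), methionine (MARS, 0.11) and for glutamate and proline (EPRS, 0.09), whose product carries both activities in 1 chain. SARS lost its call with DESeq2 and without ADP-CM replicate 3, control replicate 2 or control replicate 3 (adjusted p up to 0.0265), and MARS without control replicate 2 (adjusted p = 0.0232, edgeR). MARS shares 12.4% of its exonic bases with ARHGAP9 and DDIT3 on the opposite strand, and the strand setting of the counting is not given in the sources used here, so its value is uncertain to that extent.

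DARS, the cytosolic aspartate enzyme, fell. DARS (chr2:136663451-136743670) was at 108, 111 and 111 CPM in control and at 100.1, 101 and 96.2 CPM in ADP-CM, for which the log2 fold change was −0.15 (SE 0.0329, adjusted p = 0.000116, edgeR). It kept its call under each of the 13 other fits. Every ADP-CM library lay below every control library.

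WARS (chr14:100800127-100843142), the tryptophan enzyme, ranged from 172 to 175 CPM in control and from 163 to 164 CPM in ADP-CM, or −0.09 as a log2 fold change (adjusted p = 0.00874, edgeR). The call sat close to the threshold and was lost whenever any 1 of the 6 libraries was left out, and also with DESeq2, without the filter on low counts and with plain library sizes (adjusted p up to 0.0388). WARS shares 4.52% of its exonic bases with WDR25 on the opposite strand.

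**Figure D2:**
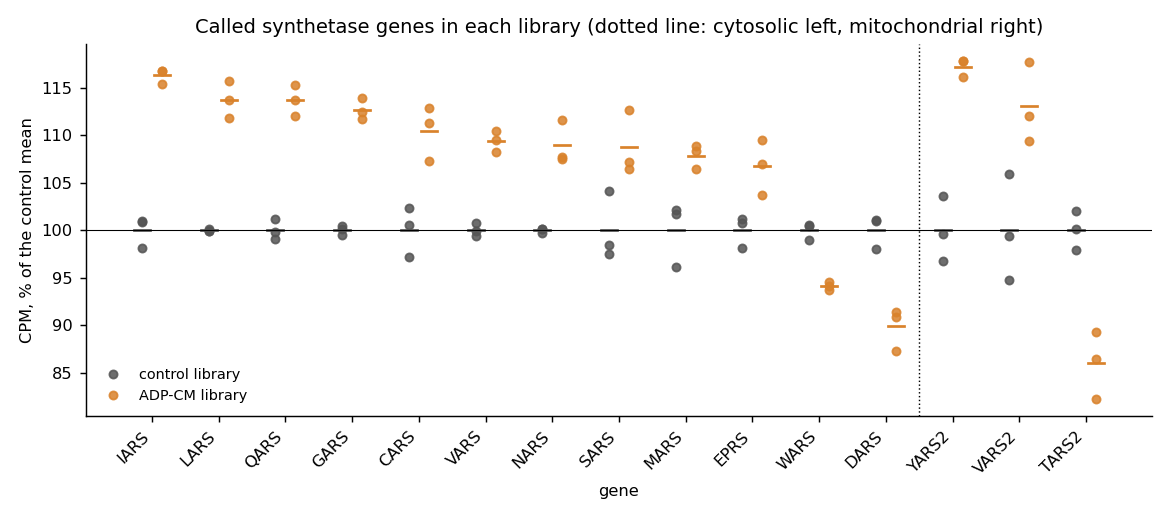
Level of the 15 called synthetase genes in each of the 6 libraries (y axis, CPM as a percentage of the gene's control mean). Points are single libraries, gray for control and orange for ADP-CM, and short bars are group means (n = 3 each). In every gene the 3 ADP-CM points lie wholly above or wholly below the 3 control points, with SARS and VARS2 showing the highest control points among the genes that rose.

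The other 8 cytosolic genes were not called. Their log2 fold changes ran from −0.01 (FARSA) to 0.09 (YARS). Their 95% intervals reached from −0.071, the low end for FARSA, to 0.149, the high end for YARS. The interval of YARS began at 0.021, above zero, while those of the other uncalled cytosolic genes included zero. For the latter, a change within a gene's own interval could not be told from none. YARS, for tyrosine, came nearest with an adjusted p-value of 0.0298 by edgeR. The alanine, arginine and phenylalanine genes AARS, RARS, FARSA and FARSB had log2 fold changes between −0.01 and 0.01. FARSA and FARSB encode the alpha and beta chains of 1 enzyme, and their fold changes of −0.01 and 0.00 did not differ beyond their standard errors of 0.0304 and 0.0306. KARS, TARS and HARS were at 0.03, 0.04 and 0.05.

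Within the multisynthetase complex, 5 of the 8 synthetase genes rose (IARS, LARS, QARS, MARS and EPRS), DARS fell, and KARS and RARS were not called. The summed level of the 8 genes was 2277 ± 9.26 CPM in control and 2457 ± 14.1 CPM in ADP-CM (SD, n = 3 each), a difference of 7.90%. Of the 12 cytosolic genes outside the complex, 5 rose and 1 fell. Beside these counts stand the 20.2% called higher and 18.3% called lower among all genes in the CPM range of the cytosolic class, and the counts inside and outside the complex were not tested against each other. Of the 3 scaffold genes, 0 were called by edgeR or by DESeq2. At an unadjusted p under 0.05, 1 was lower, and no share of all genes at that limit is given here. Their log2 fold changes were −0.02 for AIMP1, −0.09 for AIMP2 and 0.12 for EEF1E1. DARS therefore became a smaller part of the complex's synthetase reads. For every 100 reads of the other 7 genes, the control replicates held 4.998, 5.14 and 5.11 DARS reads and the ADP-CM replicates 4.26, 4.24 and 4.09.

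The mitochondrial class moved in no single direction. YARS2 and VARS2, for tyrosine and valine, rose, and TARS2, for threonine, fell, while the other 13 genes were not called. In this class, 8 genes had a fold change above zero and 8 below it, and the median log2 fold change was 0.0035. Among the 9514 tested genes with a mean CPM in the range of this class, 15.4% were called higher and 14.6% lower, and the 2 higher and 1 lower of 16 genes lie below those shares. The summed level was 1035 ± 7.84 CPM in control and 1049 ± 2.55 CPM in ADP-CM (SD, n = 3 each), a difference of 1.35%. The groups did not overlap for 9 of the 16 genes, a share near the 45.5% of all tested genes. Mitochondrial synthetase genes had fewer reads and a median SE of 0.0501, against 0.0266 for the cytosolic class, so smaller changes could be called in the cytosolic class.

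YARS2 (chr12:32880424-32908831) was at 56.2, 54.5 and 58.4 CPM in control and at 65.4, 66.4 and 66.4 CPM in ADP-CM, with the largest log2 fold change of the 36 genes, 0.23 (SE 0.0406, adjusted p = 5.16e-06, edgeR). TARS2 (chr1:150459890-150480078) was at 44.6, 42.8 and 43.7 CPM in control and at 37.8, 39.0 and 35.9 CPM in ADP-CM, the largest decrease of the 36 (log2 fold change −0.22, SE 0.0494, adjusted p = 0.000302, edgeR). Both genes kept their calls under each of the 13 other fits. VARS2 (chr6:30881982-30894236) was at 40.0, 37.5 and 35.8 CPM in control and at 42.3, 41.3 and 44.5 CPM in ADP-CM (log2 fold change 0.18, SE 0.0507, adjusted p = 0.00382, edgeR). Its groups came close to each other, and the call was lost with DESeq2 and when ADP-CM replicate 1 or 3 or control replicate 2 or 3 was left out, with adjusted p-values up to 0.0545. In GENCODE release 44, YARS2 shares 18.1% of its exonic bases with genes on the opposite strand. VARS2 shares 63% with genes on its own strand. These overlapping genes are not among the counted genes, so their reads could have entered the counts of YARS2 and VARS2, which was not tested.

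Among the mitochondrial genes that were not called, log2 fold changes ran from −0.16 (PARS2, proline) to 0.17 (FARS2, phenylalanine), and their 95% intervals reached from −0.37 to 0.32. The intervals of FARS2, MARS2 and NARS2 lay above zero and that of RARS2 lay below it. Those of the other uncalled mitochondrial genes included zero. NARS2 (0.13, adjusted p = 0.0273, edgeR) would pass a threshold of 0.05. IARS2, the isoleucine gene, was at 429.6 ± 10.0 CPM in control and 433 ± 5.38 CPM in ADP-CM (SD, n = 3 each), and its log2 fold change was 0.01. VARS and VARS2 rose together, whereas TARS2 fell and TARS was not called, and IARS rose and IARS2 was not called. The difference between such partners was examined as a ratio within each library.

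A ratio of the reads of the cytosolic gene to those of its mitochondrial partner in the same library needs no normalization. Of 17 such pairs for 16 amino acids, 11 had a higher mean ratio in ADP-CM. The groups did not overlap for 11 pairs, 8 of them higher and 3 lower in ADP-CM. No share is given here for ratios of other gene pairs, while for single genes it was 45.5% of all tested. The pairs are not all independent, since FARSA and FARSB share the partner FARS2, and EPRS is paired with both EARS2 and PARS2. With 3 libraries against 3, the exact two-sided permutation test cannot go below p = 0.1, which these 11 pairs reached, and after Benjamini-Hochberg adjustment over 17 pairs the smallest p was 0.155, so none of these differences can be called by this test.

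IARS reads per IARS2 read were 1.07, 1.12 and 1.07 in control and 1.24, 1.24 and 1.27 in ADP-CM. LARS reads per LARS2 read were 2.88, 2.66 and 3.02 in control and 3.37, 3.46 and 3.38 in ADP-CM. TARS reads per TARS2 read were 8.15, 8.56 and 8.29 in control and 9.94, 9.71 and 10.2 in ADP-CM. In these 3 pairs the balance lay more toward the cytosolic gene in every ADP-CM library. IARS and LARS were higher in the first and second pair, and TARS2 was lower in the third. LARS2 and TARS, with log2 fold changes of −0.07 and 0.04, moved the same ratios further but were not called. The tyrosine pair went the other way, with 2.10, 2.03 and 1.92 YARS reads per YARS2 read in control and 1.83, 1.79 and 1.85 in ADP-CM. The genes of the histidine pair, HARS and HARS2, lie head to head on chromosome 5 and share some exonic bases. Their ratio was 1.93 ± 0.0156 in the control and 1.94 ± 0.00839 in the ADP-CM libraries (SD, n = 3 each). The log2 change of this ratio was 0.007. Pairs with genes on different chromosomes also changed little, with −0.010 for NARS/NARS2, −0.017 for MARS/MARS2 and 0.020 for AARS/AARS2. A small change was thus not particular to the histidine pair.

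**Figure D3:**
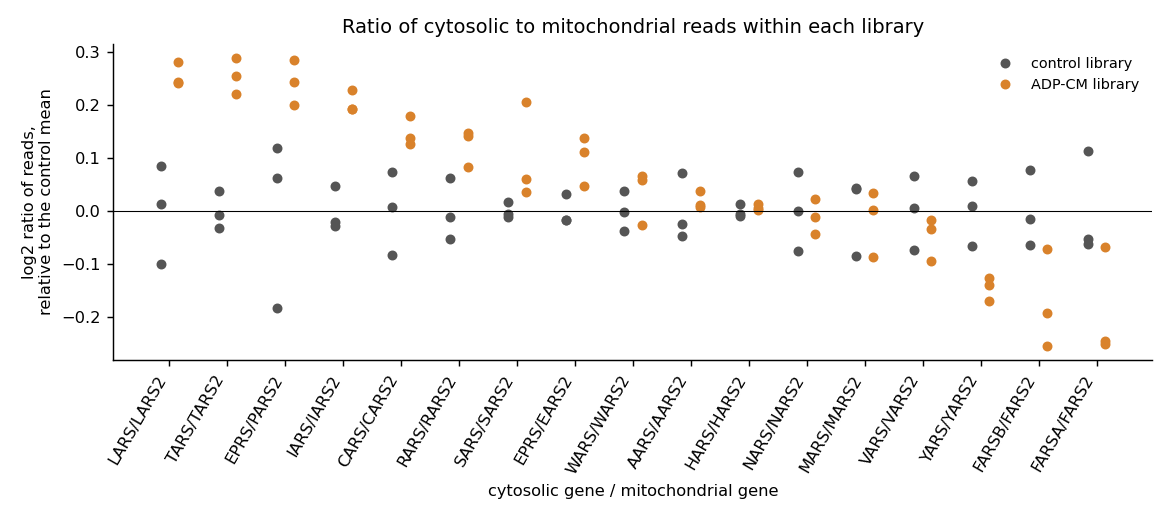
Ratio of cytosolic to mitochondrial reads within each library for 17 gene pairs (y axis, log2 ratio relative to the pair's control mean). Points are single libraries, gray for control and orange for ADP-CM (n = 3 each). The ADP-CM points lie above all control points in 8 pairs, such as IARS/IARS2, LARS/LARS2 and TARS/TARS2, and below them in 3 pairs, YARS/YARS2 and those of FARSA and FARSB with FARS2.

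Compared per kb of transcript, which allows genes of different length to be set side by side, the cytosolic genes ranged in control from 19.3 CPM per kb (FARSB) to 183 (KARS), with a median of 71.3, and the mitochondrial genes from 3.78 (PARS2) to 122 (IARS2), with a median of 15.8. KARS was the most abundant in every library, followed by NARS and TARS, whose control levels of 138 and 136 CPM per kb were close to each other. IARS lay below IARS2 in control, at 104 against 122 CPM per kb, and the pair came to 121 and 123 CPM per kb in ADP-CM. CARS and FARSB were the only cytosolic genes with a control mean below that of the highest mitochondrial genes after IARS2, which were YARS2, CARS2 and HARS2. Transcript lengths are those of GENCODE release 44, so the order would change with another choice of transcript.

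**Figure D4:**
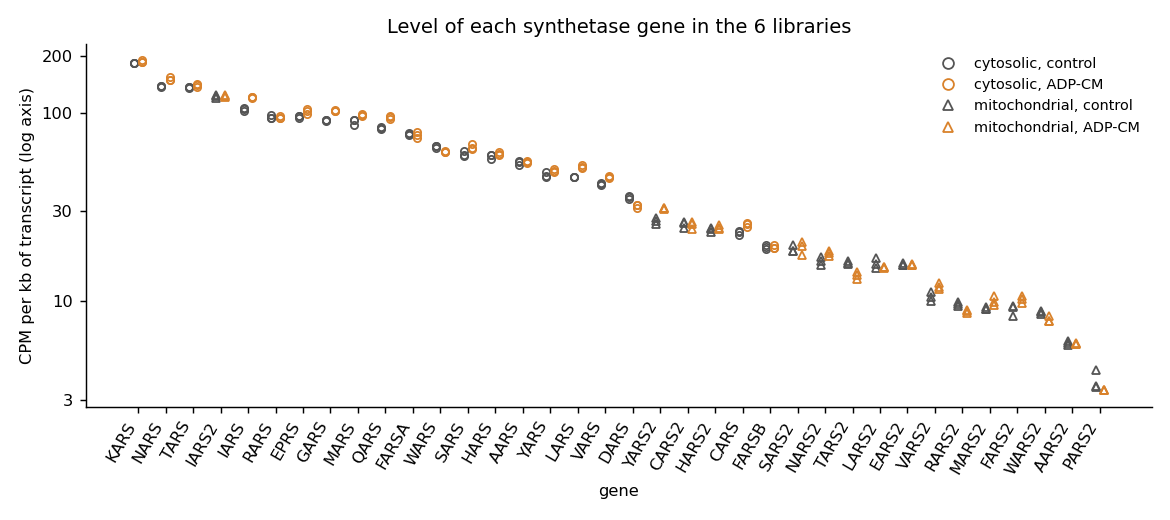
Level of the 36 synthetase genes in each library (y axis, CPM per kb of transcript, log axis), ordered by the control mean. Circles are cytosolic and triangles mitochondrial genes, gray for control and orange for ADP-CM. Cytosolic genes fill the left side down to about DARS, with the mitochondrial IARS2 as the single triangle among them, and the shifts with ADP-CM are small beside the range from 3.78 to 183 CPM per kb between genes.

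Related gene lists moved in both directions. Set against the 13.5% and 13.0% of all genes called higher and lower, in the list of 30 ATF4 and amino acid response genes, 9 were called higher and 9 lower, with a median log2 fold change of 0.04. ATF4 itself, singled out here after its value was seen, was at 301, 296 and 309 CPM in control and at 339.6, 334 and 348 CPM in ADP-CM (log2 fold change 0.17, SE 0.0232, adjusted p = 9.54e-09, edgeR). The ATF4 mRNA was thus higher in every ADP-CM library, while the protein was not measured in these files. The members of the list with the smallest p-values were ATF5, a related transcription factor, which fell by 0.61 on the log2 scale, SLC7A5 and SLC3A2, the chains of the large neutral amino acid transporter LAT1, which fell by 0.20 and 0.22, and STC2, a secreted glycoprotein, which rose by 0.37. SLC7A5 was at 1868, 1876 and 1842 CPM in control and at 1612, 1597 and 1668 CPM in ADP-CM. LAT1 imports leucine, isoleucine and tryptophan among others. Of the cytosolic synthetase genes for these amino acids, IARS and LARS were higher in ADP-CM and WARS was lower. A link between the transporter and the synthetase genes was not tested.

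Of 8 genes for eIF2 kinases and their counterparts, GCN1L1, a partner of the kinase GCN2, rose by 0.10 and PPP1R15A, a stress-induced regulator of the eIF2 phosphatase, fell by 0.27 on the log2 scale, while the other 6 were not called (list median 0.06). Among 7 cytosolic elongation factors, EEF1B2 rose by 0.16 and EEF1G by 0.11, both subunits of the complex that recharges EEF1A with GTP, and 0 fell with edgeR, with DESeq2 or at an unadjusted p under 0.05 (list median 0.03). Of 11 mitochondrial translation factors, MTRF1, TUFM and MRRF rose by 0.42, 0.09 and 0.13 and the initiation factor MTIF3 fell by 0.27 (list median 0.01). Of the 5 selenocysteine and proofreading enzymes, 0 were called (list median −0.09). At an unadjusted p under 0.05, 1 of these 5 was higher and 2 were lower, and DESeq2 also called 0. Beside the counts of these lists stand the 13.5% called higher and 13.0% called lower among all tested genes by edgeR. For the unadjusted limit, no share of all genes is given here.

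WARS is also known as a gene induced by interferon gamma. A list of genes of that response, 10 of which are reported here, had 7 tested members. Of these, 4 fell and 0 rose with edgeR and with DESeq2, and the median log2 fold change was −0.30. Among all tested genes, edgeR called 13.0% lower and 13.5% higher. At an unadjusted p under 0.05, 6 were lower and 0 higher, and no share of all genes at that limit is given here. TAP1, a peptide transporter of antigen presentation, and IRF1, a transcription factor, fell by 0.30 and 0.33 on the log2 scale, and PSMB9, a subunit of the immunoproteasome, and GBP1, a guanylate-binding protein, by 0.30 and 0.37. TAP1 was at 163, 167 and 167 CPM in control and at 140.1, 132 and 132 CPM in ADP-CM. WARS was thus lower in the same libraries as these genes, by a smaller amount, and a link between them was not tested.

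The interferon-stimulated response element, searched as GAAANNGAA, was found before one WARS start. It is marked in capitals in the sequence from chr14:100375379-100375417 (RefSeq, GRCh38.p14, minus strand).
WARS: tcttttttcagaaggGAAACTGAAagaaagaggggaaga

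The same letters were also found in the promoters of GARS, IARS and EARS2, on either strand, and in 9.86% of all genes in the promoter table. The E-box CACGTG, bound by MYC among others, was found in IARS, CARS2, EARS2 and MARS2, against 8.77% of all genes. Of these 4 genes, IARS was called.

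**Figure D5:**
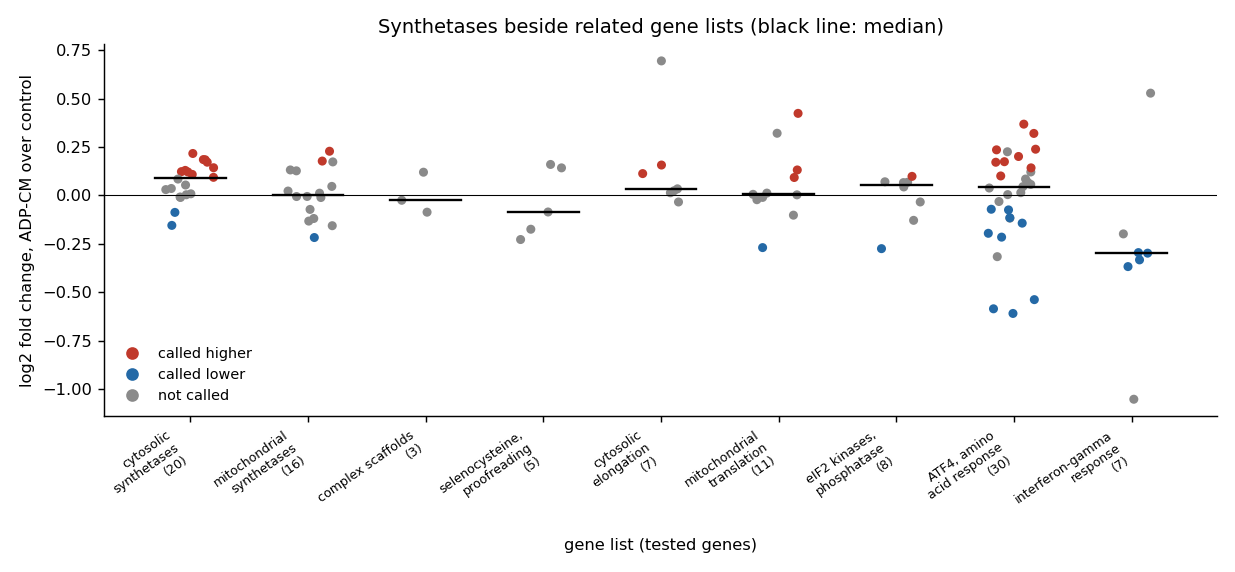
Log2 fold change (y axis, ADP-CM over control) of the tested genes in the synthetase classes and in related lists, with the number tested in parentheses. Points are genes, red if called higher, blue if called lower and gray otherwise (threshold 0.01 on the adjusted p-value), and black lines are list medians. The cytosolic synthetases sit in a narrow band around a median of 0.09, the ATF4 and amino acid response genes spread from −0.61 to 0.37, and the interferon-gamma list has a median of −0.30.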

How the data were processed

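RNA from 6 libraries of RL95-2 cells (3 control, 3 ADP-CM) was sequenced as 50 bp single reads from stranded poly(A) libraries. The authors used TopHat2 to align the reads to hg19 and HTSeq to count them on RefSeq genes. The deposited values are these raw counts, without normalization. Program versions and the strand setting are not given in the sources used here. HTSeq leaves out reads with several alignments. The summary lines that name no gene (31.5% of all counted reads in control, 33.0% in ADP-CM) entered neither the library sizes nor the tests.

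Counts were normalized by TMM in edgeR 4.0.16 (R 4.3.3), filtered by filterByExpr with its defaults (12663 of 23228 genes kept) and tested with the quasi-likelihood method, with p-values adjusted by Benjamini-Hochberg over all tested genes. The threshold for calls was 0.01 on the adjusted p-value. The common biological coefficient of variation was 1.67%. Replicates within each group differed beyond counting noise, which does not show whether they came from separate cultures. The 6 libraries entered as separate samples. The steps were also tested on simulated data that used the dispersion fitted to these libraries. At simulated folds of 0.8 and 1.25, edgeR recovered 28 and 36 of 50 changed genes, and at 0.5 and 2 it recovered 48 and 49. Smaller changes were not simulated, and those of the synthetase genes, from −14.0% to 17.2%, were all smaller than these folds.

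Members were matched by symbol, and older symbols were linked to current ones through RefSeq synonyms. Gene positions came from GENCODE release 44 on GRCh37 and promoters from RefSeq on GRCh38.p14. Sharing of exonic bases with another counted gene was found for 10 of the 36 genes. Called genes with the largest absolute log2 fold change were given with full values (up to 8 cytosolic and 6 mitochondrial), and up to 4 genes with the smallest p-values were named from each list, in addition to those said to be singled out. Some items of the lists are not reported here, and lists are counted without them. The members, lists and motifs were chosen with earlier results of these data known. Alternatives were DESeq2 1.42.0 or its size factors, plain library sizes, an unfiltered table, a minimum of 10 counts per library, a robust fit, a replicate block, limits of 0.05 on the p-value or 1.5 on the fold change, and each library left out in turn.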

Additional observations from a re-analysis of the deposited data

How the results depend on the processing

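Of the 15 called genes, 10 kept their call under each of the 13 other fits and 5 (WARS, VARS2, SARS, CARS and MARS) lost it under at least 1. With a fold change over 1.5 as a further limit, 0 synthetase genes were called in either class or direction. The cytosolic genes called lower numbered 1 with DESeq2, without the filter on low counts and with plain library sizes, and 1 to 1 when libraries were left out, since WARS lost its call. The mitochondrial genes called higher numbered 1 with DESeq2 and 1 to 2 when libraries were left out, since VARS2 did. The cytosolic median log2 fold change ranged from 0.073 (without control replicate 2) to 0.095 (without control replicate 1).

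No called gene changed sign. When single libraries were left out, 9 uncalled genes crossed zero, with lowest and highest log2 fold changes of −0.013 and 0.026 for AARS, −0.039 and 0.014 for FARSA, −0.016 and 0.020 for FARSB, −0.022 and 0.0083 for RARS, −0.030 and 0.0061 for AARS2, −0.038 and 0.029 for CARS2, −0.014 and 0.0082 for EARS2, −0.0058 and 0.029 for IARS2, and −0.025 and 0.083 for SARS2. Over all genes, DESeq2 called 2139 against 3357 with edgeR. No alternative moved the median of all genes by more than 0.0030 on the log2 scale. The cause of these shifts was not tested. The lowest depth was that of PARS2, with 135 reads in 1 library, and the part of depth in the calls was not tested.

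Whether the replicate numbers pair the samples is not stated in the labels, and the correlations were too weak to settle it. Same-numbered control and ADP-CM libraries correlated in their deviations from the group means by 0.073, 0.014 and 0.097. Differently numbered libraries correlated by −0.093 to 0.026, the highest value being that of ADP-CM replicate 2 with control replicate 1. With the replicate block, 12 cytosolic and 3 mitochondrial genes were called as before, 15 in all, no synthetase's call changed, and the count over all genes was 3502 against 3357.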

Other observations

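Aminoacyl-tRNA synthetases fall into 2 structural classes that differ in the fold of their catalytic domain, class I and class II. This grouping was chosen after the values were seen and is given as a description without a test. Among the cytosolic genes, 6 of 9 in class I rose and 1 fell, with a median log2 fold change of 0.13, and 3 of 10 in class II rose and 1 fell, with a median of 0.03. Among all genes in the CPM range of the cytosolic class, 20.2% were called higher and 18.3% lower. EPRS, which rose, holds an enzyme of each class and was counted in neither. The summed level of the class I genes was 1863 ± 8.35 CPM in control and 2034 ± 9.42 CPM in ADP-CM (SD, n = 3 each), a difference of 9.21%. For the class II genes it was 2127 ± 3.86 and 2210.3 ± 11.1 CPM, a difference of 3.90%. The called genes that rose in class I were IARS, LARS, QARS, CARS, VARS and MARS, and those in class II were GARS, NARS and SARS. In the mitochondrial set the split was not seen, with medians of −0.0050 over 9 genes of class I and 0.02 over 7 genes of class II. Both mitochondrial genes that rose, YARS2 and VARS2, belong to class I, and TARS2, which fell, to class II.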
